A study of Cicer arietinum with 8 samples.

Results

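Chlorophyll a/b binding proteins are the antenna proteins of the chloroplast. They hold chlorophyll and carotenoids in the thylakoid membrane and pass the light energy they absorb to the reaction centres of photosystem I and photosystem II. They are encoded in the nucleus by a family of related genes, are imported into the chloroplast, and are among the most abundant transcripts of a green leaf. When a plant takes in more light than carbon fixation can use, as can happen in the cold, the size of this antenna is one of the things it can adjust.

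The members were the 9 features of a spotted cDNA array whose description in the study's feature list contains the words chlorophyll a/b binding, out of 756 features other than controls, 559 of them from chickpea (Cicer arietinum). They carry the accessions DY475151, DY475163, DY475202, DY475430, DY475454, DY475489, DY475534, DY475554 and DY475555, and all 9 are chickpea cDNAs with the same description, Chlorophyll a/b binding protein. Which antenna subunit each encodes is not given in the sources used here. The features were chosen by their name and not by a measured value. Transcripts of related genes can bind to one another's spots on a cDNA array, and how far these 9 features are separate measurements was not tested.

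The study compared cold-treated with control plants in 8 groups, which were leaves and flowers of 4 genotypes. Sonali (Tolerant1) and ILC 01276 (Tolerant2) were the cold tolerant genotypes, and Amethyst (Susceptible1) and DOOEN (Susceptible2) the susceptible ones. Treated and control sets held 5 plants each, grown in pots in a glasshouse at 15 to 25 °C, and the flower samples pooled flowers, buds and early pods. From 2 weeks after flowering the treated plants had 7 nights at 5 °C with 12 h days at 15 to 25 °C, while the controls stayed in the glasshouse. Each hybridisation set cold-treated against control RNA of 1 genotype and tissue on 1 slide, 1 in each dye, so that its ratio was a cold response within a group. The labels call the replicates biological without saying how the plants were divided among them, so the p-values measure the spread between these hybridisations. In such tissue samples a smaller share of a cell type and less RNA per cell cannot be told apart.

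Of 24 hybridisations, 22 were distinct, because the flower groups of Tolerant2 and Susceptible2 each held replicate 1 again as replicate 3, and such a pair was counted as 1 sample. This left 12 hybridisations of leaves and 10 of flowers, 14 with the cold-treated RNA in Cy5 and 8 with it in Cy3. The file headers placed the scans in 3 periods of quantification. Period 1 held replicate 1 of the 4 groups of Tolerant1 and Susceptible1, period 2 their replicates 2 and 3, and period 3 all 10 hybridisations of Tolerant2 and Susceptible2. Period 1 stood apart, with 17.9% to 42.2% of spots free of flags by the image software against 56.3% to 75.7% elsewhere. The arrays limit precision through the number of hybridisations.

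The antenna features were among the bright ones, and this bounded what could be measured. A 16-bit scanner records no value above 65535, and a channel is called at the ceiling here when 50% or more of the spots used had a median signal there. Of the 936 member spots used, 376 (40.2%) were at the ceiling in a channel, against 12.4% over all features, and the share for members ran from 0% to 82.1% of spots between hybridisations. Of 198 pairs of a member and a hybridisation, 171 gave a log2 ratio of cold over control. In the 36 with both channels at the ceiling, the absolute log2 ratio had a median of 0.0504 and none reached 0.5. In the 106 with neither channel at the ceiling the median was 0.325 and 44 reached 0.5. A ratio near 0 from a spot at the ceiling is therefore no measurement of an unchanged transcript.

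In 10 of the 72 pairs of a member and a group, both channels were at the ceiling on every hybridisation with a value, so that their ratios are readings at the ceiling and no measure of a fold. These were DY475163 in the leaves and flowers of Tolerant2 and Susceptible2, DY475202 in Susceptible2 leaves and in the flowers of Tolerant2 and Susceptible2, DY475151 and DY475430 in Susceptible2 flowers, and DY475534 in Susceptible1 leaves, where it had 1 value.

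**Figure D1:**
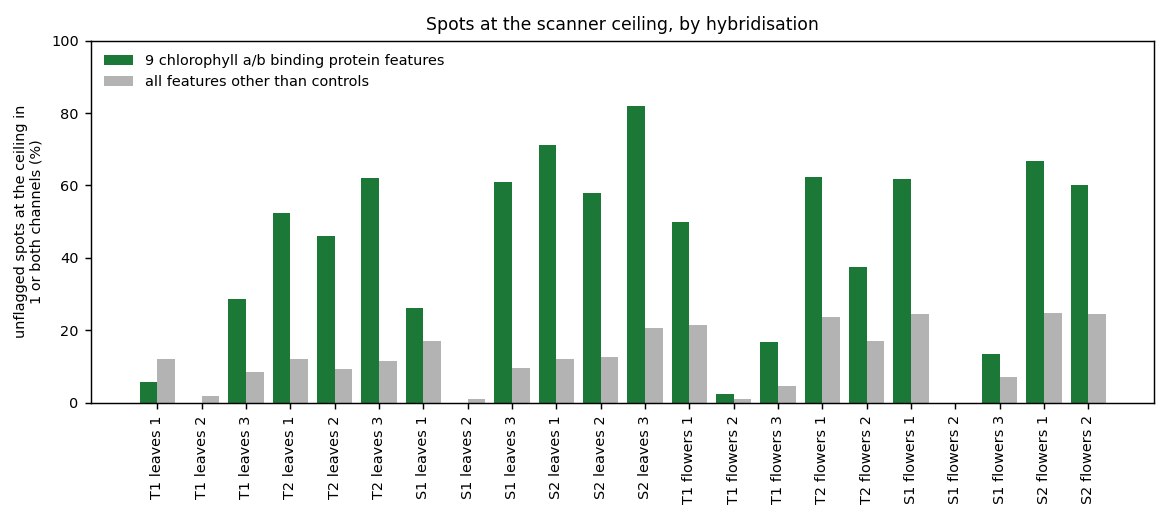
Percent of used spots at the scanner ceiling in each hybridisation (T for Tolerant, S for Susceptible, with the replicate last), for the chlorophyll a/b binding features and for all features other than controls. The member share is between 0% and 82.1%, the share over all features between 0% and 24.9%.

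Over the leaf groups, 2 of the 9 antenna transcripts fell in the cold. They were DY475454 and DY475489, with mean log2 ratios over the 4 genotypes of -0.64 and -0.70. Of the 7 members that could be tested over all 4 leaf groups (at least 2 values in each group), these 2 were lower and none higher at an adjusted p below 0.05 in limma, where 9.66% of all 445 features tested were called, 3.37% lower and 6.29% higher. The median of the 7 members was -0.10 on the log2 scale, against 0.00 over all features tested, and it takes in DY475163 and DY475202, which had leaf groups with both channels at the ceiling. Over the flower groups limma called 0 of the 8 members tested (1 at an unadjusted p under 0.05, DY475489), where 1.12% of features were called, and the member median was -0.04.

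DY475454 had a log2 ratio below 0 on every leaf hybridisation that gave a value, 2 of them with both channels at the ceiling. Its log2 ratios of cold over control were -0.89 and -0.73 in Tolerant1 leaves, replicate 1 giving no unflagged spot, and -0.80, -0.41 and -0.41 in Tolerant2 leaves. In Susceptible1 leaves they were -1.38, -1.46 and -0.19, and in Susceptible2 leaves -0.35, -0.10 and -0.19. All 11 values lay below 0, the lowest from Susceptible1 and the values nearest to 0 from Susceptible2 and from replicate 3 of Susceptible1. The control channel was at the ceiling on that replicate and on all 3 hybridisations of Susceptible2. Replicates 2 and 3 of Susceptible2 had both channels there, so its values are no measure of a smaller response. The mean over the 4 leaf groups was -0.64 (SE 0.12, 95% interval -0.90 to -0.38, limma adjusted p = 0.00273).

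The flowers did not share that pattern for DY475454. Its log2 ratios were -0.17, 0.78 and -0.25 in Tolerant1 flowers, -0.53 and -0.15 in Tolerant2 flowers, -0.20, 0.23 and -0.10 in Susceptible1 flowers, and -0.29 and -0.22 in Susceptible2 flowers. The values fell on both sides of 0 in Tolerant1 and Susceptible1 and overlapped those of the leaves, with 5 of 11 leaf values below the lowest flower value. The mean over the flower groups was -0.13 (95% interval -0.40 to 0.15, adjusted p = 0.887). The difference between leaves and flowers in the cold response was -0.52 (95% interval -0.89 to -0.14) and did not pass adjustment over all features (limma adjusted p = 0.252), where 1.72% of features did. Without Susceptible1 leaves replicate 3 it was -0.62 with an adjusted p of 0.0241.

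The ceiling and the dye order both moved with the size of the DY475454 response. Its 4 leaf values with neither channel at the ceiling had a mean of -1.11 (SD 0.36), and the 7 values with a channel at the ceiling a mean of -0.35 (SD 0.23). In Tolerant2 leaves the control channel was at the ceiling on all 3 hybridisations and the cold channel on none. The mean there was -0.54 (SE 0.23) and was not called (limma adjusted p = 0.360). With the control read at the ceiling it is no measure of the fold, and no lower bound on the fold was tested. The leaf mean was -0.78 with the cold RNA in Cy5 (n = 7) and -0.36 with it in Cy3 (n = 4). By period of quantification it was -1.38 (1 value), -0.81 (n = 4) and -0.38 (n = 6), below 0 in each, and with dye order as a term the leaf mean was -0.62 (adjusted p = 0.00335).

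DY475489 was likewise lower in the cold on all 11 leaf hybridisations with a value. Its log2 ratios were -0.94 and -0.67 in Tolerant1 leaves, where replicate 1 again gave no value, and -1.87, -0.50 and -1.06 in Tolerant2 leaves. They were -0.17, -0.69 and -0.32 in Susceptible1 leaves and -0.86, -0.06 and -0.48 in Susceptible2 leaves. Tolerant2 leaves held the 2 lowest values, and the 2 values nearest to 0 came from the susceptible genotypes. Over the leaf groups the mean was -0.70 (SE 0.14, 95% interval -0.99 to -0.41, limma adjusted p = 0.00327). DY475489 was at the ceiling in only 2 of these 11 hybridisations, and the mean of the 9 others was -0.70 (SD 0.55).

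In flowers DY475489 was lower on 8 of 10 hybridisations. The log2 ratios were -0.66, 0.68 and -0.27 in Tolerant1 flowers, -0.57 and -0.65 in Tolerant2 flowers, -0.68, 0.01 and -0.38 in Susceptible1 flowers, and -0.47 and -0.06 in Susceptible2 flowers. The exceptions were replicate 2 of Tolerant1 and of Susceptible1 flowers, the same hybridisations on which DY475454 was above 0. The flower mean of -0.33 (95% interval -0.63 to -0.02) did not pass the test (adjusted p = 0.554), nor did the difference between leaves and flowers of -0.37 (95% interval -0.80 to 0.05, adjusted p = 0.738). The leaf mean was -0.87 with the cold RNA in Cy5 (n = 7) and -0.39 with it in Cy3 (n = 4), and between periods it ran from -0.17 (1 value) to -0.81 (n = 6).

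**Figure D2:**
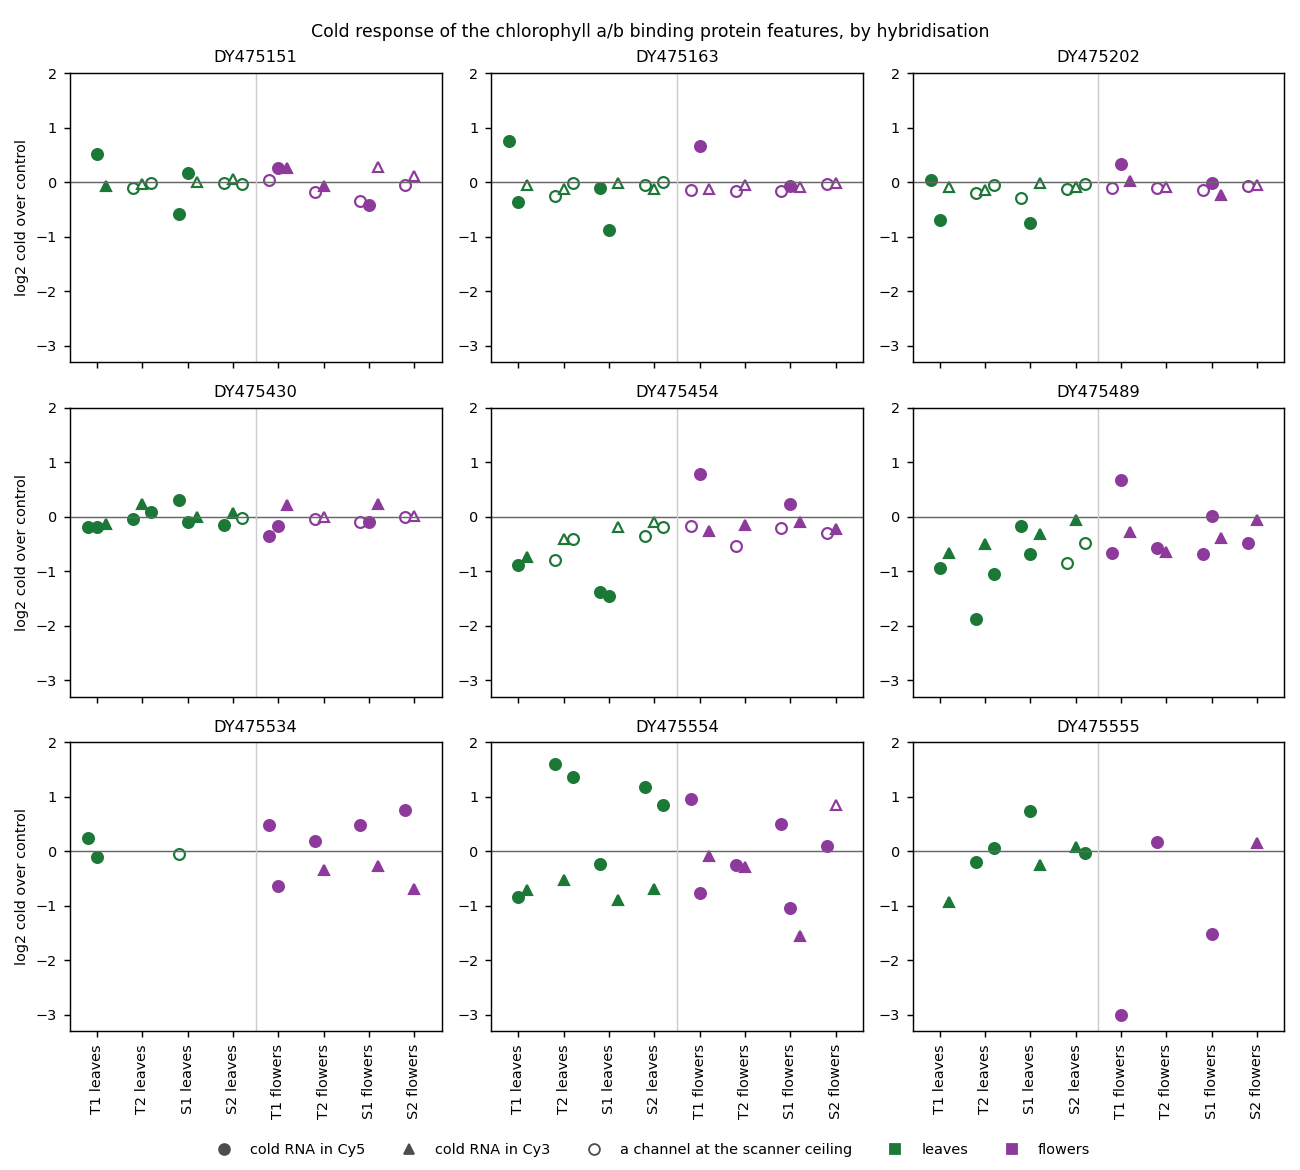
The log2 ratio of cold over control for the members in each hybridisation with a value, by group (T1 and T2 are Tolerant1 and Tolerant2, S1 and S2 Susceptible1 and Susceptible2). Circles have the cold RNA in Cy5, triangles in Cy3, and open symbols a channel at the scanner ceiling. For DY475454 and DY475489 all 11 leaf values lie below 0, and 8 of 10 flower values do. Of the DY475454 leaf values, 2 had both channels at the ceiling and are no measure of a fold.

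Lying below 0 on every leaf hybridisation was not common on the array. Among features with at least 8 leaf values it held for 7 of 477 (1.47%), and DY475454 and DY475489 were 2 of the 7. Readings at the ceiling were counted here, among them 2 of the 11 leaf values of DY475454 with both channels there. In flowers it held for 0.665% of features and for no member.

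Calls were also made within single groups. To be called, a group needed a log2 ratio of 1 or more in size together with an adjusted p under 0.05, and 15 of 4033 pairs of a feature and a group met this (0.372%). Among leaf groups the share was 1.26% for Tolerant1, 0.586% for Tolerant2, 0.797% for Susceptible1 and 0.389% for Susceptible2, and it was 0% for each group of flowers. Of the 64 pairs tested for members, 1 met it, DY475454 in Susceptible1 leaves at -1.01 ± 0.71 (SD, n = 3 and limma adjusted p = 0.0460). That call was lost without any 1 of 19 of the 22 hybridisations, and the value was -0.82 (adjusted p = 0.3005) without Susceptible1 leaves replicate 1, -0.78 (0.217) without replicate 2 and -1.42 (0.00335) without replicate 3. DY475489 in Tolerant2 leaves, at -1.14 ± 0.69 (SD, n = 3), had an adjusted p of 0.0517. The value was -0.78 (adjusted p = 0.507) without Tolerant2 leaves replicate 1 and -1.46 (0.0266) without replicate 2.

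**Figure D3:**
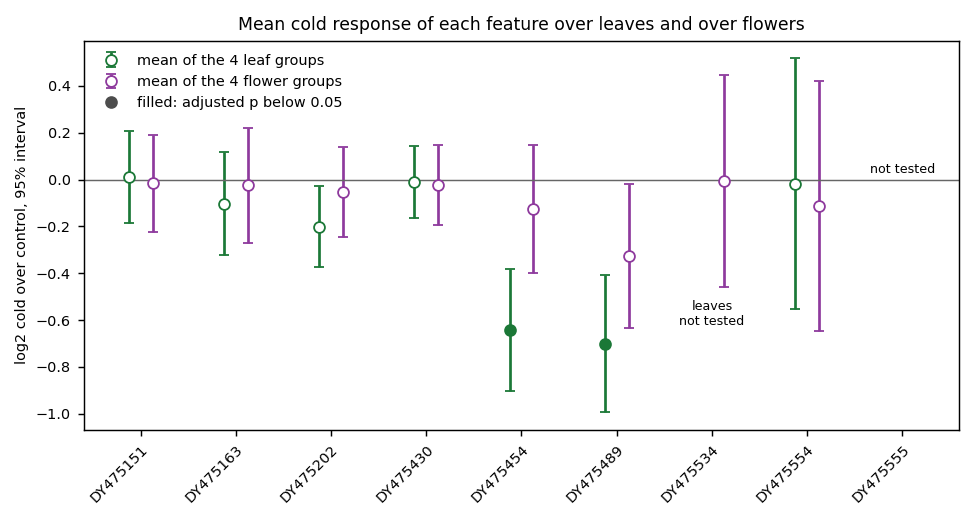
Mean log2 ratio of cold over control over the 4 leaf groups and over the 4 flower groups for each member, with 95% intervals from the limma fit. Filled points, DY475454 and DY475489 in leaves, had an adjusted p below 0.05. The means of DY475163 and DY475202 in both tissues and of DY475151 and DY475430 in flowers take in groups with both channels at the scanner ceiling. The leaf mean of DY475454 takes in Tolerant2 and Susceptible2, where the control channel was at the ceiling on 3 of 3 hybridisations each.

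DY475202, DY475163, DY475151 and DY475430 gave no called change in either tissue. For DY475202 the log2 ratios were 0.05, -0.69 and -0.09 in Tolerant1 leaves and -0.29, -0.74 and -0.02 in Susceptible1 leaves, and between -0.19 and -0.05 in Tolerant2 leaves. Both values below -0.5 came from replicate 2 of Tolerant1 and Susceptible1, where neither channel was at the ceiling, while the values of Tolerant2 came from spots with 1 or both channels at it and those of Susceptible2 leaves had both there. The mean over leaf groups, which holds Susceptible2 leaves, was not called (limma adjusted p = 0.151) and is no measure of the size of the response.

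DY475163 was at the ceiling on most leaf hybridisations. Its 4 leaf values free of the ceiling spread from -0.88 to 0.76 (SD 0.69), and the 8 at the ceiling from -0.25 to 0.00 (SD 0.0840). Since both channels of Tolerant2 and Susceptible2 leaves were at the ceiling, no mean over the leaf groups is given for it. For DY475151 the leaf values ran from -0.59 to 0.52 (mean 0.01, 95% interval -0.19 to 0.21). A channel was at the ceiling for 7 of its 11 leaf values (SD 0.0471), while the 4 others had an SD of 0.465. The mean of DY475151 is therefore no measure of an unchanged transcript. Of these 4 members DY475430 had the narrowest range of leaf values and was at the ceiling on 1 leaf hybridisation of 12. Its leaf values lay between -0.19 and 0.32 (mean -0.01, 95% interval -0.16 to 0.14). The lower end of this unadjusted 95% interval is a mean leaf decrease of 0.16 on the log2 scale, and absence of a change was not tested.

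DY475554 behaved unlike the other members. In leaves its log2 ratios were -0.84 and -0.72 in Tolerant1, 1.61, -0.52 and 1.37 in Tolerant2, -0.22 and -0.89 in Susceptible1, and 1.19, -0.69 and 0.85 in Susceptible2. The 4 values above 0 were those of Tolerant2 and Susceptible2 with the cold RNA in Cy5, and the swapped replicate of the same groups lay below 0 each time. The mean was 0.66 in Cy5 (n = 6) and -0.70 in Cy3 (n = 4), so that the sign of the mean changed with the dye, whose part in the result was not tested. The means over the leaf groups (-0.02, 95% interval -0.55 to 0.52) and over the flower groups (-0.11, 95% interval -0.65 to 0.42) were not called.

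DY475534 and DY475555 gave few values. DY475534 was bright in period 1, with control signals of 27129 to 51890, and dim in periods 2 and 3, with 225 to 2286 and 825 to 6352. It had 3 leaf and 8 flower values, and its flower mean was -0.01 (95% interval -0.46 to 0.45). Its 4 flower values above 0 (0.19 to 0.76) all had the cold RNA in Cy5, and 3 of the 4 below 0 had it in Cy3. DY475555 had 7 leaf and 4 flower values and could not be tested over either tissue. Its flower values were -2.997 in Tolerant1 and -1.51 in Susceptible1, each from replicate 2, and 0.18 and 0.15 in Tolerant2 and Susceptible2, so the largest decrease of any member rested on 3 spots of 1 hybridisation.

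The question behind the choice of genotypes was whether tolerant and susceptible plants respond differently. In limma 0 members passed for a difference between the tolerant and the susceptible pair in the cold response of leaves (7 tested) or flowers (8 tested), 0 of them also at an unadjusted p under 0.05, and 0% of all features passed. In leaves the difference, tolerant minus susceptible, was -0.54 for DY475489 (95% interval -1.13 to 0.04, limma adjusted p = 0.994), with a wide interval that holds both 0 and a difference of 1 on the log2 scale. For DY475454 it was -0.06 (95% interval -0.58 to 0.46). In the Tolerant2 and Susceptible2 leaves of that contrast the control channel of DY475454 was at the ceiling on 3 of 3 hybridisations each. Both channels were there on 2 of 3 in Susceptible2, so a value near 0 is no measure of equal responses.

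The members' ratios moved together to different degrees across hybridisations. Pearson's r was 0.81 between DY475163 and DY475202 and 0.80 between DY475202 and DY475454, but 0.54 between DY475454 and DY475489. At the other end DY475489 and DY475554 had an r of -0.56. These values describe 20 to 22 hybridisations that share dye order, slide and period between the members, and carry no test. They also take in ratios read at the ceiling. A channel was there on 8 of 12 leaf and 8 of 10 flower hybridisations for DY475163, and on 9 and 6 for DY475202.

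Leaves and flowers were then compared for transcript abundance in the control plants. The level used was the log2 signal of the control channel after quantile normalisation of the mean intensities across hybridisations, and it was compared between tissues within a feature only. By this level DY475454, DY475489 and DY475202 stood higher in control leaves than in control flowers, and DY475554 lower, though the ceiling limits DY475454 and DY475202. Of 7 members tested, these 3 were higher and 1 lower at an adjusted p below 0.05, where 39.2% of 406 features were called, 17.7% higher and 21.4% lower, so 4 of 7 was read against a large background. The median of the members was 0.40, and that of all features tested -0.12.

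For DY475454 the level in control leaves ran from 14.03 to 15.61 with a median of 15.14 (11 values), and in control flowers from 13.66 to 14.70 with a median of 14.41 (10 values). All but 1 of the leaf values stood above the highest flower value, the exception being Susceptible1 leaves replicate 1. Averaged over groups, leaves stood at 15.08 against 14.29 for flowers, or 0.80 higher (95% interval 0.37 to 1.22, limma adjusted p = 0.00478). The control channel was at the ceiling on 7 of the 11 leaf and 4 of the 10 flower hybridisations. In Tolerant2 and Susceptible2 leaves it was there on 3 of 3 hybridisations each, so their means of 15.16 and 15.14 are readings at the ceiling and have no place in the order of groups. The other group means were, from highest to lowest, 15.03 in Tolerant1 leaves, 15.00 in Susceptible1 leaves, 14.65 in Tolerant1 flowers, 14.20 in Susceptible1 flowers, 14.19 in Susceptible2 flowers and 14.10 in Tolerant2 flowers. The leaf groups overlapped one another in their values, as did the flower groups of Tolerant2, Susceptible1 and Susceptible2.

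DY475489 showed a like difference at a lower signal. Its leaf levels had a lowest value of 12.32, a median of 14.71 and a highest value of 15.24, and its flower levels 13.29, 13.83 and 14.25. Again 10 of 11 leaf values exceeded every flower value, and Susceptible1 leaves replicate 1 was the lowest of all. The group means were 14.55 and 13.78, a difference of 0.76 (95% interval 0.16 to 1.37, adjusted p = 0.0432). DY475202 differed by 0.40 (15.34 against 14.94, 95% interval 0.09 to 0.71, adjusted p = 0.0399), with the control channel at the ceiling on 9 of 12 leaf and 6 of 10 flower hybridisations. Its control channel was there on every hybridisation of Tolerant2 and Susceptible2, in both tissues. Their differences of 0.66 and 0.61 are thus readings at the ceiling. Leaves minus flowers was -0.002 in Tolerant1 (95% interval -0.59 to 0.58) and 0.33 in Susceptible1 (-0.26 to 0.91). The 0.40 is therefore no measure of a difference in abundance.

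DY475554 ran the other way. In leaves its control level was lowest at 10.47, with a median of 11.08 and a highest value of 14.36 (10 values), and in flowers 12.15, 12.97 and 13.80 (10 values). Of the leaf values 9 lay below every flower value, and the remaining one, Susceptible1 leaves replicate 1, lay above them all. Averaged over groups, the level was 11.52 in leaves against 13.00 in flowers, or -1.48 (95% interval -2.14 to -0.83, limma adjusted p = 0.00145). Within a genotype the difference was called for Tolerant2 at -2.62 (adjusted p = 0.0290), where 4.25% of features were called. It was -1.92 in Susceptible2, -1.33 in Tolerant1 and -0.05 in Susceptible1, none of them called, where 2.2%, 8.6% and 8.22% of features were. Neither channel of DY475554 reached the ceiling in leaves.

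**Figure D4:**
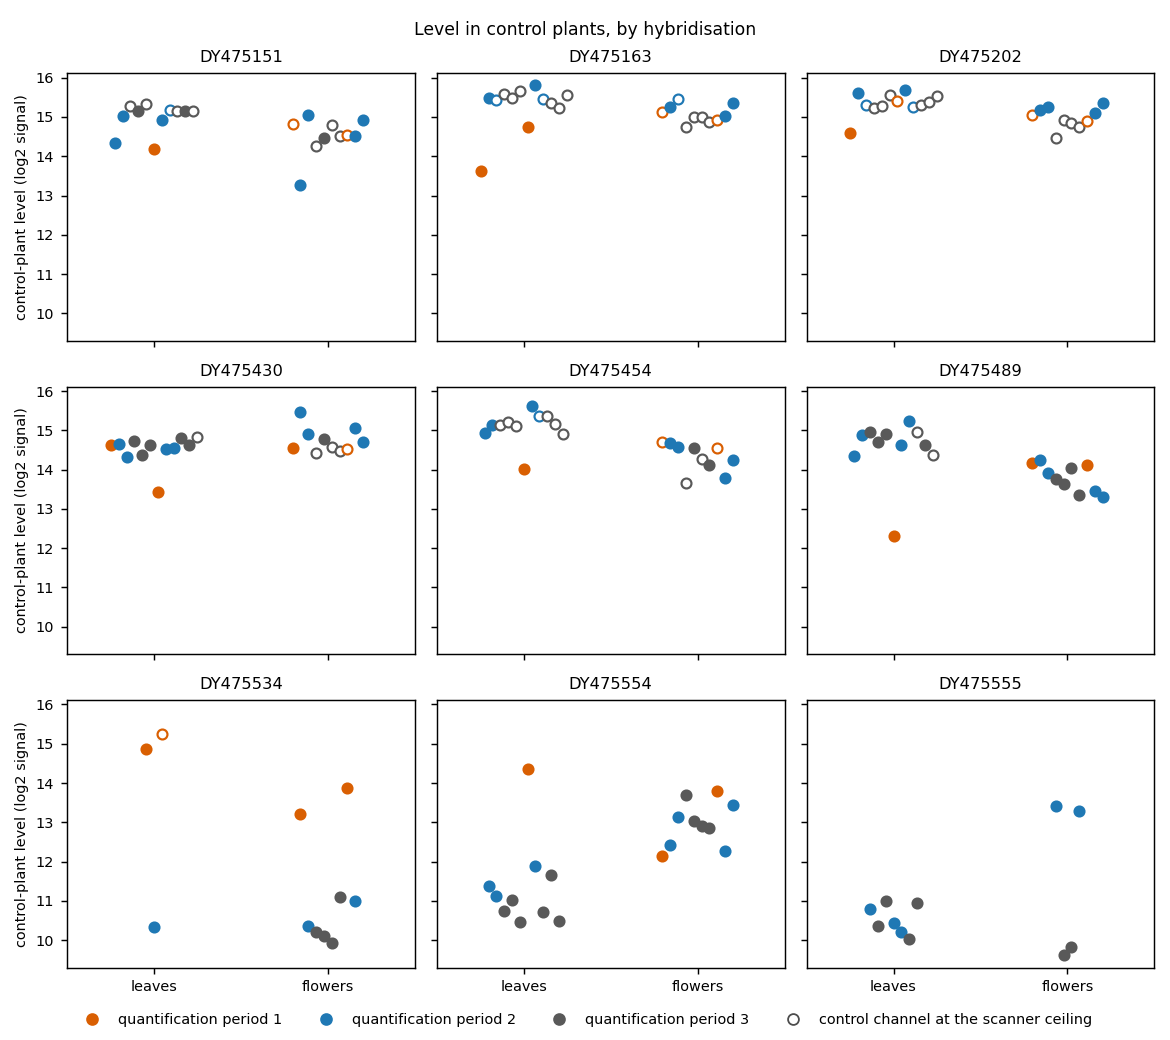
Control-channel level (log2 signal after quantile normalisation) of the members in each leaf and flower hybridisation with a value, coloured by quantification period, with open symbols where the control channel was at the scanner ceiling. DY475454 and DY475489 lie higher in leaves on all but 1 leaf hybridisation, and DY475554 lies lower on all but 1.

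The 3 other members tested were not called. Leaves minus flowers was 0.45 for DY475151 (95% interval -0.01 to 0.91), 0.24 for DY475163 (-0.20 to 0.69) and -0.21 for DY475430 (-0.56 to 0.15). The control channel was at the ceiling on 8 of 12 leaf and 7 of 10 flower hybridisations for DY475163. For DY475151 this was 5 of 11 and 5 of 10, and for DY475430 1 of 12 and 4 of 10. The ceiling thus limits the size of these differences. DY475163 turned to -0.09 with flagged spots removed before the quantile step, and DY475430 to 0.06 with median scaling in place of the quantile step.

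Period 1, the scans with most flags, went against the tissue differences. Within periods 1, 2 and 3, leaves minus flowers was -0.60, 0.93 and 1.002 for DY475454, and -1.83, 1.05 and 1.05 for DY475489. For DY475202 it was 0.03, 0.23 and 0.64, and for DY475554 1.38, -1.37 and -2.27. The control channel of DY475202 was at the ceiling on every hybridisation of period 3. Periods 2 and 3 thus had 1 direction for each of the 4 transcripts, and period 1, with 1 or 2 leaf hybridisations against 2 of flowers, had the opposite direction for all but DY475202. With the period as a block in the fit the same 4 members were called.

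The DY475554 difference was called under each of the 14 alternatives that allowed its test (-1.86 to -1.36). The others depended more on the processing. Taken from the cold-treated channel, leaves minus flowers was 0.28 for DY475454 (adjusted p = 0.445), 0.39 for DY475489 (0.3395) and 0.25 for DY475202 (0.1545), so DY475554 was then the only member called. When single hybridisations were left out, DY475454 and DY475554 kept the call in each fit that could test them, DY475489 lost it in 14 of 20 fits (adjusted p up to 0.104) and DY475202 in 12 of 22 (up to 0.1205). Scaling also moved the whole array. The median of all features was 0.07 with median scaling in place of the quantile step and -0.25 with flagged spots removed before it, and the share of calls that were higher in leaves went from 45.3% to 59.5% and 34.7%.
For the level, 0 members and 0% of features passed for a difference between tolerant and susceptible genotypes, in leaves or in flowers (limma). At an unadjusted p under 0.05 there was 1 member in leaves and 0 in flowers.

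The other photosynthesis features on the array gave a setting for these values. Tested over the leaf groups were 5 of 6 photosystem I features, 7 of 8 photosystem II features and 4 of 5 electron carriers. So were 2 magnesium chelatase features and 4 of 5 carbon fixation features. Among all of these 1 was called in the cold, where 9.66% of all 445 features tested were. This was the ferredoxin DY475487, which carries electrons from photosystem I, at -0.37 (SE 0.0937, adjusted p = 0.0190). The list medians in leaves were -0.04 for photosystem I, 0.11 for photosystem II, 0.02 for electron carriers, -0.55 for magnesium chelatase and 0.24 for carbon fixation. How many of these readings were at the scanner ceiling is not given here, so a median near 0 is no measurement of unchanged transcripts. Magnesium chelatase catalyses the first committed step of chlorophyll synthesis, and both features are grasspea (Lathyrus sativus) sequences, neither of them called (-0.59 and -0.52). None of these lists had a feature called over the flower groups, where 1.12% of all features were and magnesium chelatase could not be tested.

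By control level, photosystem I stood higher in leaves for 4 of 5 features tested, with a list median of 1.12 and none lower, where 39.2% of all features were called, 17.7% higher and 21.4% lower in leaves. They were the reaction centre subunits IX (DY475047, 2.00), VI-2 (DY475285, 1.37), IV (DY475128, 1.12) and XI (DY475132, 0.75), which are structural proteins of that photosystem. In photosystem II the D2 protein of the reaction centre was higher in leaves (DY475142, 1.36) and the feature named photosystem II protein lower (DY475148, -0.79), out of 6 tested. Ferredoxin-NADP reductase, which makes the NADPH for carbon fixation, was higher in leaves (DY475083, 1.24, 1 of 4 electron carriers). Of the 4 carbon fixation features, the Calvin cycle regulator CP12 (DY475058, 0.87) and carbonic anhydrase (DY475213, 0.62) were higher in leaves. All of these are limma differences in log2 level with an adjusted p below 0.05. No marker list of flowers was fixed, and the flower label was not checked.

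Outside these lists, the features whose cold log2 ratios followed the mean of the members most closely were CA0705, DY475070 (dehydration-induced protein), DY475219, DY475165 and DY475238 (chloroplast 30S ribosomal protein S7). Their Pearson's r was 0.667, 0.646, 0.642, 0.638 and 0.629 over 19 to 22 hybridisations, the highest among 415 features. For the control level over the 8 group means, CA0750 (0.879), DY475241 (0.869), DY475399 (0.847), EB085030 (0.846) and CA0725 (0.785) were closest among 480. Both member means used the members with a value, so they did not hold the same members throughout. DY475534, for example, had no value in Tolerant2 and Susceptible2 leaves and 1 in Susceptible1 leaves. What this did to r was not tested. Features without a description here are named Unknown in the feature list.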

How the data were processed

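The deposited scanner files held, per channel, the intensity of each spot with its local background and a quality flag, quantified by the authors with ImaGene and not normalized. The deposited table of log2 means per group, made by the authors through background subtraction, LOWESS and a shifted log2 transformation, was used only as an alternative. Its medians per group were -0.20 to -0.03, and its shift and centring are unknown. Across features its Pearson's r with the values used here was 0.581 to 0.836, so its direction was cold over control.

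The name of each file gave its dye and replicate number, and the header gave that dye too for 22 hybridisations and no dye for 2. Features were joined to spots by print order, with 660 of 660 compared positions and 33 of 33 resistance gene analogs matching. A reference table of RefSeq genes held 0 of the 9 member accessions, and sequences were not analysed here.

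In limma 3.58.1 under R 4.3.3, intensities were corrected with normexp (offset 50), each hybridisation was normalized with 1 loess curve (span 0.3, 4 iterations), swapped dyes were turned to cold over control, and the unflagged spots among the 6 per feature were averaged. Flagged and control spots did not set the curve. Features whose signal reached 2 times background in a channel of some hybridisation were kept (738). Tests were lmFit and eBayes over the 8 groups, two-sided, with Benjamini-Hochberg adjustment over all features with at least 2 replicates per group. They were tested on simulated data. Alternatives changed the background, the flags, the normalization, the blocks and the hybridisations used. Each member was named. Other features were named where a photosynthesis list had a call, and for the 5 highest correlations with the members in ratio and in level. The members and lists were chosen with earlier results of these data known.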

Additional observations from a re-analysis of the deposited data

Results flagged for a closer look

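In 2 cases every hybridisation of 1 flower group moved one way and every hybridisation of another flower group the opposite way, and neither difference was tested. For DY475151 the mean log2 ratio of cold over control was 0.19 in Tolerant1 flowers (n = 3) and -0.13 in Tolerant2 flowers (n = 2), a difference of 0.3145, with a channel at the ceiling on some of these hybridisations. For DY475554 it was -0.27 in Tolerant2 flowers (n = 2) and 0.47 in Susceptible2 flowers (n = 2), a difference of -0.7387, and the cold channel of Susceptible2 flowers replicate 2 was at the ceiling.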

How the results depend on the processing

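The mean leaf decreases of DY475454 and DY475489 kept their direction and their call under the 12 and 13 alternatives that could test them (-0.75 to -0.52, adjusted p 9.84e-05 to 0.0358, and -0.83 to -0.67, adjusted p 0.000469 to 0.00926). They also did so in the 20 fits each that left out 1 hybridisation. The count of members called over the leaf groups was 1 in place of 2 with spots at the scanner ceiling left out, since DY475454 then had too few values for a test. It was 0 to 2 with 1 hybridisation left out, 0 only without Tolerant1 leaves replicate 2 or 3, where both members had 1 value left in that group.

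The count of calls in single groups, 1, was 0 with flagged spots kept, with spots at the ceiling left out, with the replicate block, with loess within each sub-array grid, with flagged spots kept in the loess curve, and with the methods' test on replicate means, which called 0 members both before and after Benjamini-Hochberg adjustment (23 and 0 pairs over all features). The deposited table, which has no test, held 7 member values of -1 or lower and none of 1 or higher. They were DY475554 in the leaves of Tolerant1 (-1.70) and Susceptible1 (-1.35) and in Susceptible1 flowers (-1.08), DY475555 in the leaves of Tolerant1 (-1.001) and Tolerant2 (-1.89) and in Susceptible1 flowers (-1.33), and DY475454 in Susceptible1 leaves (-1.34). The count was 2 with the quantification period as a block, with the repeated files counted as replicates of their own and with median centring, and 0 to 2 with 1 hybridisation left out. DY475202 passed over the leaf groups (adjusted p = 0.0345) when the repeated files were counted so. The member called was not always the same. DY475454 in Susceptible1 leaves lost its call with median signals (-1.05, limma adjusted p = 0.0517). It did so too with dye order as a term (-0.98, under the size limit). In these 2 settings DY475489 in Tolerant2 leaves was called instead (limma adjusted p = 0.0385 and 0.0358). The DY475454 call was lost in 8 of 13 alternatives.

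The count of level differences between leaves and flowers, 4, was 1 with the local background subtracted, with flagged spots kept, with flagged spots removed before the quantile step and in the cold-treated channel, 2 in the mean of both channels, 2 of the 2 members that could be tested with spots at the ceiling left out, and 0 to 5 with 1 hybridisation left out. The 0 came without Tolerant1 leaves replicate 2 or 3, where 3 members could be tested. The count for the cold response between leaves and flowers was 0 to 1 with 1 hybridisation left out, against 0. The causes were not tested. Same-numbered replicates of leaves and flowers of a genotype had deviations that correlated over 0.1 in 7 of 10 pairs (r -0.12 to 0.52), and those of a tolerant and a susceptible genotype in the same tissue in 10 of 11 (-0.11 to 0.79), so that not every pair did and the block was kept as an alternative. Same-numbered replicates can share dye order and period as well. The replicate block gave DY475454 in Susceptible1 leaves an adjusted p of 0.0722 and left the counts over the leaf groups (2), for the level (4) and between tolerant and susceptible genotypes (0) as they were.

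No called result changed sign. With median scaling DY475151 was also called for level (adjusted p = 0.00755), and with median signals DY475430 was called lower in leaves (adjusted p = 0.0231) while DY475202 was not (0.359). Keeping flagged spots in the loess curve and leaving out the 4 hybridisations of period 1 were chosen after seeing the data. Without period 1, DY475454 in Susceptible1 leaves lost its call (-0.82, adjusted p = 0.334) and DY475489 in Tolerant2 leaves gained one (adjusted p = 0.0492), and DY475151 and DY475163 were called for level beside DY475202, DY475454 and DY475489, while DY475554 could not be tested. The scanner ceiling limits every size given for the brightest members.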

Other observations

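DY475534 had a control level of 13.21 to 15.25 on the 4 hybridisations of quantification period 1 and of 9.94 to 11.09 on the 7 others with a value. The order held in both tissues, with 14.87 and 15.25 in leaves and 13.21 and 13.87 in flowers of period 1.

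For DY475555 the control level was 13.42 in Tolerant1 flowers replicate 2 and 13.29 in Susceptible1 flowers replicate 2, the hybridisations of its lowest ratios, and at most 10.999 on its other 9 hybridisations with a value.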
